A study of Mus musculus with 15 samples.

Results

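Conventional type 1 dendritic cells (DC1) from lymph node (LN) were compared with DC1 from spleen across the genes that passed a minimum level. The members are the 13032 genes, of 38924 counted, with more than 1 CPM, the count scaled to the library total, in at least 3 of 6 libraries, and those libraries are 6 of the 15 murine libraries analysed here. LN DC1 were CD103+ CD11c+ MHC class II-high migratory cells from the nodes that drain the lung (3 libraries), and splenic DC1 were CD8+ CD11c+ MHC class II+ resident cells (3 libraries). All mice were naïve female C57BL/6 animals of 6 to 8 weeks with no transgene and no treatment, and each library pooled sorted cells of several mice. The spleens were taken from other cohorts than the nodes, both tissues were digested with collagenase D, and only the nodal cells were taken through a gate for high MHC class II. Organ, cohort and gate therefore cannot be told apart in any difference given here, and a bulk library cannot separate fewer cells of one kind from less RNA per cell. Itgae (CD103), Cd8a, Itgax (CD11c) and the MHC class II genes encode proteins used for sorting, and their levels are a description. Itgae stood at 39.3, 20.7 and 21 CPM in the LN libraries and 71.4, 112 and 134 CPM in the splenic libraries, lower in the cells that had been sorted for CD103. Cd8a stood at 20.4, 15.6 and 19.5 CPM in the LN libraries and 349.7, 341 and 620.2 CPM in the splenic libraries and Itgax at 117, 86.7 and 98.8 CPM in the LN libraries and 557, 523 and 529 CPM in the splenic libraries, and each of the 3 genes had every LN library below every splenic one.

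DC1 depend on the transcription factors Irf8 and Batf3 and are known for taking up dying cells and presenting their antigens on MHC class I to CD8 T cells. In the spleen they live as resident cells. In the lung they take up antigen, mature, and travel through afferent lymph to the draining node along CCL19 and CCL21, the ligands of CCR7. Maturation is known to raise costimulatory ligands and to change how antigen is taken up, cut and loaded.

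The 3 LN libraries held 6542584 to 9683795 counts on genes and the 3 splenic libraries 7225353 to 8311777. Reads outside exons made up 24.7% to 30.7% of the uniquely mapped reads in LN and 17.6% to 23.7% in spleen, ranges that do not overlap, and mitochondrial genes took 0.964% to 1.32% against 1.32% to 1.72% of counts. The 10 DC1 markers summed to 1706 to 2188 CPM in LN DC1 and 6404 to 10640.0 CPM in splenic DC1, against 712 to 873 CPM in LN CD11b+ DC2 and 845 to 1150.0 CPM in splenic CD4+ DC2, and 8 of the 10 were lower in LN. Most of the LN DC1 sums came from Ly75, the 1 higher marker, and Irf8. Ly75 stood at 746, 876 and 736 CPM there and Irf8 at 760, 530 and 539 CPM. Markers of other cells differed too. The 12 T cell markers summed to 162 to 233 CPM in LN and 7.49 to 24.7 CPM in spleen with 10 of 11 tested higher in LN, and the 12 B cell markers to 137 to 432 and 47 to 72.2 CPM with 6 of 10 tested higher. Monocyte markers summed to 60.3 to 86.7 CPM in LN and 245 to 344 in spleen, macrophage markers to 215 to 263 and 329.7 to 439, erythroid markers to 6.45 to 15.4 and 29.3 to 148, and stromal and endothelial markers to 15.2 to 24 and 93.4 to 148. Neutrophil and platelet markers stayed below 4 CPM in all 6 libraries, and Ly6g, Mpo, Elane and Retnlg had no count. The part that other cells have in the results was not tested.

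Of the 13032 genes, edgeR's quasi-likelihood test with Benjamini-Hochberg adjustment called 6368 (48.9%), with 3254 higher in LN DC1 (25.0%) and 3114 lower (23.9%). These shares are the background against which each gene group is read. Groups did not overlap in CPM, with every library of one organ above every library of the other, for 59.6% of genes. The filter let in 494 genes that passed 1 CPM in all 3 LN libraries and in no splenic one, and 258 with the opposite pattern, and such genes had to differ. Fold changes below are log2 of LN over spleen with standard errors, from a fit of all 15 libraries, and a level is a normalised CPM, which is not divided by gene length. The gene groups were chosen with earlier results of these data known.

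**Figure D1:**
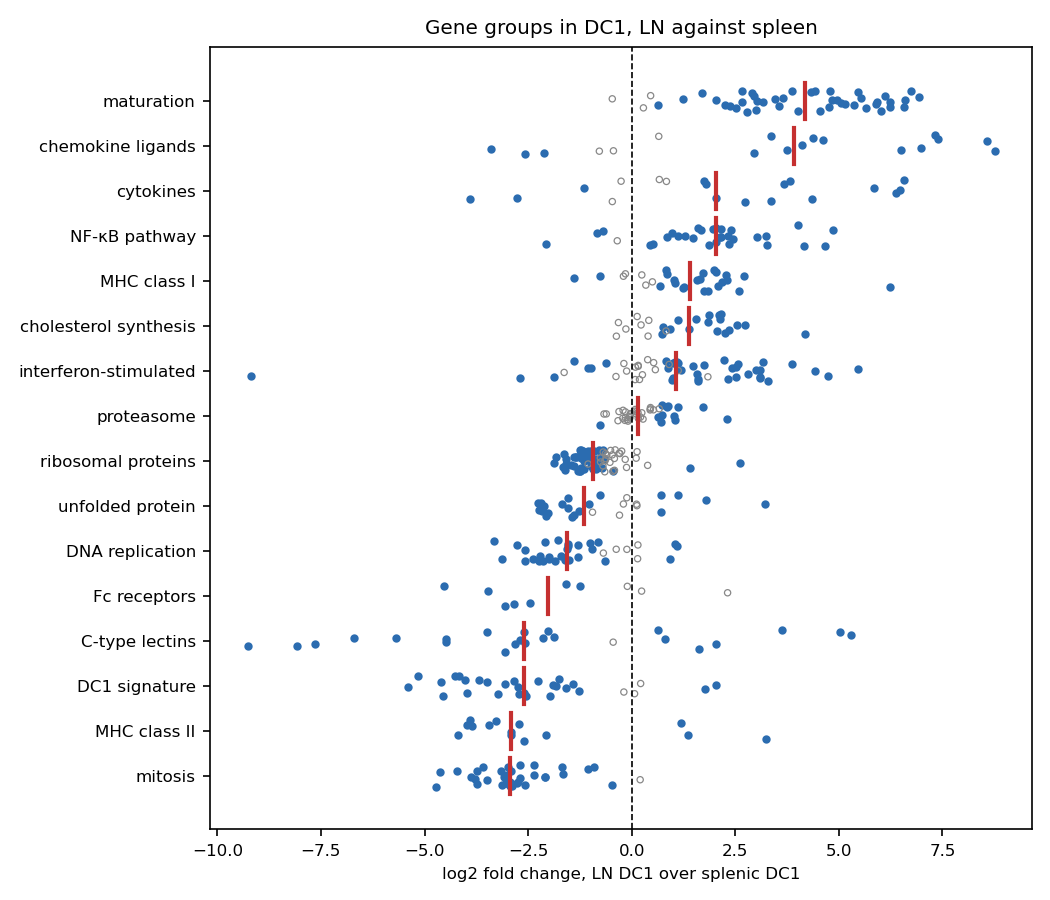
Log2 fold change (LN over spleen) of every member tested in 16 gene groups, 1 point per gene, filled where the gene was called at an adjusted p below 0.05 and open otherwise, with a bar at the group median and a dashed line at the median of all 13032 genes. Maturation, NF-κB and cholesterol synthesis genes lie mostly above 0, and mitosis, MHC class II and Fc receptor genes mostly below.

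Genes of DC maturation and migration were higher in LN DC1 almost throughout. Of the group, 43 of 46 members tested were higher in LN DC1, 0 were lower and 3 did not pass the test, with a median log2 fold change of 4.18 against -0.01 over all genes. Fscn1 (ENSMUSG00000029581, mm10 chr5:142960343-142973185) encodes fascin, which bundles actin in the long processes of mature DCs. It stood at 5649, 7625 and 6598 CPM in the LN libraries and 69, 53.1 and 62.9 CPM in the splenic libraries, a log2 fold change of 6.75 ± 0.42 (adjusted p = 5.1e-10). Anxa3, which encodes a membrane-binding annexin, stood at 1028, 1190.2 and 1242 CPM in the LN libraries and 11.2, 9.63 and 14.6 CPM in the splenic libraries (6.61 ± 0.26, adjusted p = 8.78e-12). The LN and splenic libraries of both genes were far apart and did not overlap. Ccr7 (ENSMUSG00000037944, mm10 chr11:99144196-99155077), the receptor that guides DCs to and within the node, stood at 3748, 3761 and 4511 CPM in the LN libraries and 60.4, 88 and 122 CPM in the splenic libraries (5.47 ± 0.34, adjusted p = 5.2e-10). The splenic levels of Ccr7 varied among themselves, and all lay below the LN levels. Tnfrsf9, which encodes the costimulatory receptor 4-1BB, differed by 6.94 ± 0.48 and Tnfrsf4 (OX40) by 6.23 ± 0.40, and T cells are also known to make both. Cst3 (cystatin C, an inhibitor of lysosomal proteases) was at 12738 ± 803 CPM in LN and 17642 ± 1902 CPM in spleen (SD, n = 3 each) and did not pass the test. It was called lower with DESeq2 (-0.431) and with the replicate number as a block (-0.459).

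Most chemokine ligands tested were higher in LN DC1. Of 18 tested, 12 were higher in LN DC1 and 3 lower, with a median of 3.92. Ccl5 (ENSMUSG00000035042, mm10 chr11:83525778-83530518), which draws T cells and monocytes, stood at 7376, 6355 and 7962 CPM in the LN libraries and 25.1, 29.5 and 74.2 CPM in the splenic libraries (7.39 ± 0.51, adjusted p = 1.39e-09). Ccl22, a ligand of CCR4 on regulatory and helper T cells, stood at 1137, 1223 and 1516 CPM in the LN libraries and 5.46, 3.21 and 21.4 CPM in the splenic libraries (6.99 ± 0.55). Both genes had every LN library far above every splenic one. Cx3cl1 (fractalkine) and Cxcl16 were also higher, with means of 78.9 CPM in LN and 0.850 CPM in spleen for the first and 2648 CPM in LN and 198 CPM in spleen for the second. Cxcl1, which attracts neutrophils, reached 15.7 CPM in LN and 0.0824 CPM in spleen, and Ccl17 had 8 splenic counts and a ratio of 398-fold (95% Poisson interval 202 to 923). The lower ligands were Cxcl9, Ccl3 and Ccl4. Cxcl9, a ligand of CXCR3, stood at 11.2, 6.15 and 6.62 CPM in the LN libraries and 75.8, 52.8 and 125 CPM in the splenic libraries (-3.40 ± 0.43, adjusted p = 2.8e-06), and Ccl4 at 5.81 CPM in LN and 34.1 CPM in spleen (-2.58 ± 0.53). Ccl21a, a CCR7 ligand that nodal stroma is known to make, averaged 54.2 CPM in LN and 0.223 CPM in spleen, and the part of stromal cells in it was not tested. Of the 10 stromal and endothelial markers, 4 passed the filter. Of these, 3 were lower, the endothelial Pecam1, Kdr and Vwf, and 1 was not called. The fibroblast marker Col1a1 did not pass the filter and lay higher in LN, at 0.554, 0.464 and 1.65 CPM in the LN libraries and 0, 0.267 and 0 CPM in the splenic libraries. The fibroblast markers Col1a2, Col3a1 and Pdgfrb overlapped between organs. Col1a2 stood at 1.11, 1.16 and 0.993 CPM in the LN libraries and 0.475, 1.20 and 0 CPM in the splenic libraries.

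Receptors for attractants fell into a higher and a lower set. Among 14 chemokine receptors 6 were higher and 8 lower, and none failed the test. Besides Ccr7 the higher ones were Cxcr5, Ccr6, Cxcr6, Cxcr4 and Ccrl2, and Cxcr6 lost its call without LN replicate 3 (1.94). Cxcr5, the receptor for the follicle chemokine CXCL13, stood at 45.6, 13.7 and 23.2 CPM in the LN libraries and 1.07, 0.267 and 0 CPM in the splenic libraries (5.89 ± 0.66, adjusted p = 6.97e-07), and B cells are known to carry it as well. S1pr1, which senses sphingosine-1-phosphate and leads cells out of nodes, stood at 37.5, 39 and 22 CPM in the LN libraries and 1.31, 0 and 1.93 CPM in the splenic libraries (4.87 ± 0.57). Neither gene overlapped between organs. Among the lower ones were Xcr1, Cxcr3, Ccr1, Ccr2, Ccr3, Ccr9 and Cx3cr1. Cxcr3, the receptor of Cxcl9, stood at 3.88, 1.86 and 3.14 CPM in the LN libraries and 38.4, 41.2 and 59.4 CPM in the splenic libraries (-3.97 ± 0.52, adjusted p = 4.67e-06). Ccr9, a gut-homing receptor, averaged 12.8 CPM in LN and 62.1 CPM in spleen and Ccr2, a receptor that brings monocytes and their kin out of marrow, 9.94 CPM in LN and 57.2 CPM in spleen. Lpar6, a receptor for lysophosphatidic acid, averaged 11 CPM in LN and 116 CPM in spleen (-3.40 ± 0.24). Ptger4, the prostaglandin E2 receptor EP4, was higher by 2.81 ± 0.26, while Ptger2 and Ptger3, which encode other receptors of the same lipid, were lower, with 15 and 2 LN counts and spleen over LN ratios of 11.5-fold (95% Poisson interval 6.95 to 20.5) and 33.1-fold (95% Poisson interval 9.15 to 273).

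Ligands for T cells moved in both directions. Of 24 tested, 12 were higher and 7 lower. Slamf1, a homotypic receptor of lymphocytes and DCs, stood at 30.8, 32.7 and 45.5 CPM in the LN libraries and 0, 0.267 and 0.567 CPM in the splenic libraries, which is 128-fold (95% Poisson interval 62.3 to 319) higher in LN over 7 splenic counts. Cd70, the ligand of CD27, stood at 15.9, 13.8 and 13.2 CPM in the LN libraries and 0.119, 0.401 and 0 CPM in the splenic libraries, with 4 splenic counts and a ratio of 88.5-fold (95% Poisson interval 34.6 to 325). Pdcd1lg2 (PD-L2) averaged 66.4 CPM in LN and 1.60 CPM in spleen and Cd274 (PD-L1) 370.0 CPM in LN and 40.9 CPM in spleen, and both are ligands of the inhibitory receptor PD-1. Cd40, the receptor through which helper T cells license DCs, averaged 819 CPM in LN and 85.8 CPM in spleen (3.25 ± 0.25), and Icosl, the ligand of ICOS, 951 CPM in LN and 143 CPM in spleen (2.74 ± 0.22). The classic pair did not follow. Cd80 averaged 12.6 CPM in LN and 14.3 CPM in spleen and did not pass the test, and Cd86 was lower, at 133, 156 and 168 CPM in the LN libraries and 215, 216 and 331 CPM in the splenic libraries (-0.74 ± 0.24, adjusted p = 0.0164). The LN and splenic libraries of Cd86 did not overlap, and the call was lost without LN replicate 1 (-0.65) or splenic replicate 3 (-0.50). The lower side was led by the inhibitory or modulating receptors Havcr2 (TIM-3), Cd244a (2B4) and Btla. Havcr2 stood at 52.6, 39.4 and 28.1 CPM in the LN libraries and 849.9, 868 and 714 CPM in the splenic libraries (-4.34 ± 0.30, adjusted p = 1.9e-09), Cd244a averaged 3.17 CPM in LN and 109 CPM in spleen and Btla 80.4 CPM in LN and 531 CPM in spleen.

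Most genes of the NF-κB pathway were higher in LN DC1. Of 31 genes tested, 27 were higher, 3 were lower and 1 did not pass, with a median of 2.02. Relb (ENSMUSG00000002983, mm10 chr7:19606217-19629438), the subunit of the alternative branch that DC maturation is known to need, stood at 2751, 3040.0 and 2791 CPM in the LN libraries and 163, 168 and 150.2 CPM in the splenic libraries (4.16 ± 0.25, adjusted p = 3.61e-10). Nfkb2, its partner, was higher by 2.39 ± 0.17 and Rel by 2.34 ± 0.21, while Nfkb1, the partner of the classical branch, was lower, at -0.69 ± 0.22. All 11 inhibitors and feedback genes were higher. Nfkbia, which encodes the inhibitor that holds NF-κB in the cytoplasm and is itself a target of it, stood at 3970.0, 4654 and 5329 CPM in the LN libraries and 845, 1171 and 559 CPM in the splenic libraries (2.44 ± 0.31). Tnip3, an inhibitor that binds A20, averaged 31.7 CPM in LN and 1.06 CPM in spleen. The TNF receptors split, with Tnfrsf1b (TNFR2) higher by 4.67 ± 0.25 and Tnfrsf1a (TNFR1) lower, at -2.06 ± 0.20. Ltbr, the lymphotoxin receptor, was lower as well (-0.83 ± 0.32). The call of Nfkb1 was lost without LN replicate 1, LN replicate 2 or splenic replicate 1, with values of -0.63, -0.61 and -0.45, and that of Ltbr without 4 of the 6 libraries, LN replicates 2 and 3 and splenic replicates 1 and 2. In the wider TNF receptor family 11 of 21 were higher and 3 lower, with Fas among the first (178 CPM in LN and 13 CPM in spleen) and Tnfrsf21 among the second (4.72 CPM in LN and 75.2 CPM in spleen).

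The kappa B letters GGGA and TTTCC with any 1 base between were searched on both strands of promoter windows. RefSeq gives these windows on build mm10 (GRCm38.p6) from 250 bases before to 50 after a start. The letters stood in the windows of 3 of 27 NF-κB pathway genes with a window and of none of 37 maturation genes. They stood in 0.411% of all 32851 windows and in the windows of 0.575% of the 9386 genes tested that had one. The 200 bases before the start of Nfkbia are shown as the called member with the largest change whose stretch holds the letters, 5′ to 3′ on the gene's strand, with the match in capitals on the opposite strand.
Nfkbia, mm10 chr12:55492648-55492847, minus strand: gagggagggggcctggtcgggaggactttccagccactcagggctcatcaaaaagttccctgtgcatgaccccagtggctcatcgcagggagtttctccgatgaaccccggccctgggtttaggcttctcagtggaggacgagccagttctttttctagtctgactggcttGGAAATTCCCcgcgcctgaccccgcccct

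Cytokine genes were mostly higher in LN DC1. Of 19 tested, 12 were higher and 3 lower, with a median of 2.04. Il12b (ENSMUSG00000004296, mm10 chr11:44400063-44414033), the p40 chain shared by IL-12 and IL-23, stood at 492, 388 and 526 CPM in the LN libraries and 19.9, 33.3 and 82.6 CPM in the splenic libraries (3.37 ± 0.43, adjusted p = 5.88e-06), while Il12a and Il23a, its partner chains, stayed below the filter. Il15, which sustains memory CD8 T cells and NK cells, stood at 356, 522 and 506 CPM in the LN libraries and 31.8, 45.5 and 30.4 CPM in the splenic libraries (3.69 ± 0.25), and Il15ra, the chain that presents it, differed by 5.06 ± 0.26. The organs did not overlap for any of these genes. Il1rn, the natural antagonist of IL-1, averaged 22.8 CPM in LN and 0.234 CPM in spleen, Csf1, the macrophage growth factor, 69.4 CPM in LN and 0.819 CPM in spleen, and Lif 11.6 CPM in LN and 0.807 CPM in spleen. The lower cytokine genes were Il16, Tgfb1 and Il18. Tgfb1 stood at 22.6, 12 and 16.9 CPM in the LN libraries and 103, 117 and 129 CPM in the splenic libraries (-2.76 ± 0.24, adjusted p = 2.32e-08), and Il16 averaged 10.9 CPM in LN and 164 CPM in spleen. Tnf, Il1b and Ltb did not pass the test.

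On the receiving side, 17 of 32 receptor genes were higher and 8 lower. Receptors of the common gamma and beta chain families and of growth factors, counted together, accounted for 10 of the higher ones. Il2ra (CD25) averaged 85.5 CPM in LN and 0.683 CPM in spleen, Il21r 449 CPM in LN and 11.1 CPM in spleen, Il7r 219 CPM in LN and 10.3 CPM in spleen and Il4ra 799 CPM in LN and 100.3 CPM in spleen. The shared chain itself, Il2rg, stood at 968, 997 and 734 CPM in the LN libraries and 276, 222 and 105 CPM in the splenic libraries (2.16 ± 0.31, adjusted p = 1.27e-05). T cells are known to carry Il2ra and Il7r too, and their markers were higher in LN by the sums given above. The lower receptors were led by Ifngr1, the ligand-binding chain of the interferon-γ receptor, at 63, 42.8 and 47.8 CPM in the LN libraries and 601, 592 and 659.7 CPM in the splenic libraries (-3.59 ± 0.20, adjusted p = 2.33e-10). Every LN library was far below every splenic one. Csf1r, the receptor of Csf1, averaged 13.3 CPM in LN and 95.9 CPM in spleen and Il6ra 10.7 CPM in LN and 76.8 CPM in spleen. Kit was lower, at -2.08 ± 0.24. Flt3, the growth factor receptor on which DCs depend, averaged 1355 CPM in LN and 1091 CPM in spleen and did not pass. Of the JAK, STAT and SOCS genes, 13 of 19 were higher and 1 was lower. Socs2 differed by 6.12 ± 0.41, Cish by 4.0 ± 0.82 and Stat4 by 3.55 ± 0.48, and Socs5 was the lower one (-1.27 ± 0.29).

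**Figure D2:**
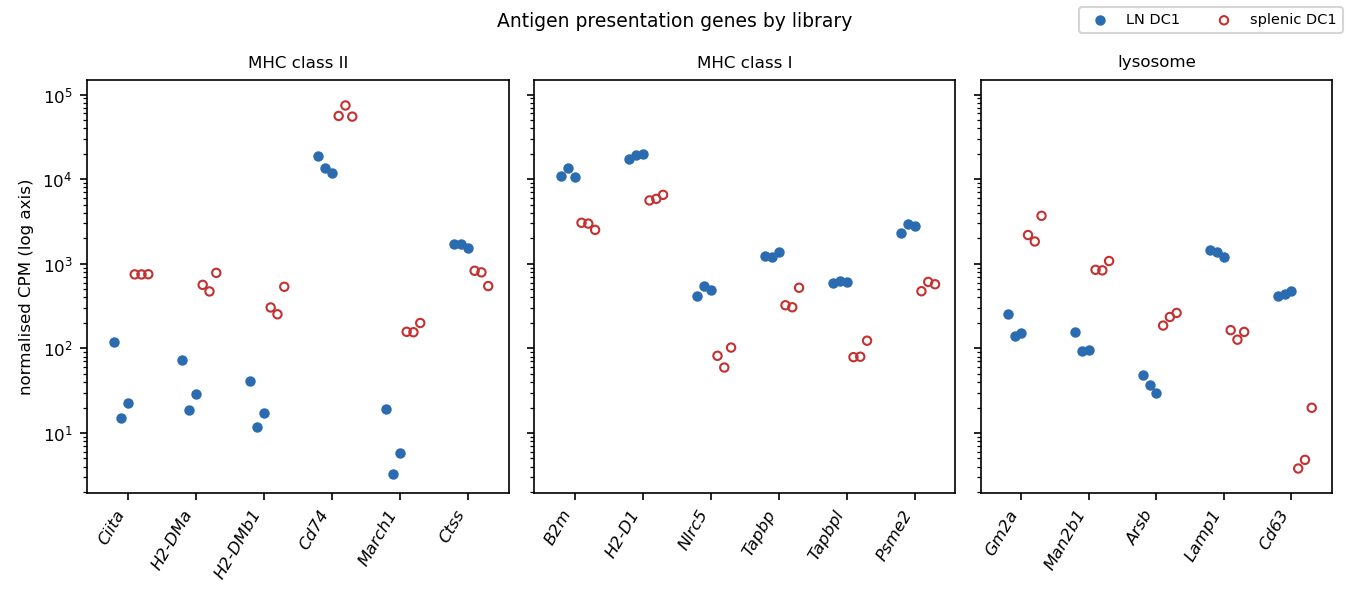
Normalised CPM on a log axis in each of the 3 LN (filled) and 3 splenic (open) libraries for genes of MHC class II presentation, MHC class I presentation and lysosomal hydrolysis. The LN points lie below the splenic ones for Ciita, H2-DMa and Gm2a and above them for B2m, Tapbp and Lamp1.

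The 2 arms of antigen presentation went in opposite directions. Of 14 genes of MHC class II and its loading, 3 were higher in LN DC1 and 11 lower, with a median of -2.90, in cells that had been gated for high MHC class II protein. Ciita (ENSMUSG00000022504, mm10 chr16:10488178-10527564), the master regulator of class II transcription, stood at 119, 15.2 and 22.3 CPM in the LN libraries and 749, 748 and 752 CPM in the splenic libraries (-3.85 ± 0.52, adjusted p = 6.7e-06). H2-DMa and H2-DMb1 encode the exchanger that loads peptide in place of the invariant chain. H2-DMa stood at 73.8, 18.9 and 28.6 CPM in the LN libraries and 563, 471 and 781 CPM in the splenic libraries (-3.90 ± 0.42), and H2-DMb1 averaged 23.2 CPM in LN and 364 CPM in spleen (-3.97 ± 0.49). LN replicate 1 had the highest of the 3 LN levels in all 11 lower genes, against 51.9% of the 3114 genes lower in LN. It still lay below every splenic library for Ciita, H2-DMa and H2-DMb1. March1, which encodes the ubiquitin ligase that sends class II molecules to lysosomes and is known to be shut off in mature DCs, averaged 9.34 CPM in LN and 171 CPM in spleen (-4.19 ± 0.43). Cd74, the invariant chain, averaged 14690.0 CPM in LN and 61679 CPM in spleen. The 3 higher genes were H2-Eb2, the protease Ctss and the thiol reductase Ifi30. Ctss, cathepsin S, which cuts the invariant chain, stood at 1727, 1716 and 1518 CPM in the LN libraries and 827, 792 and 545 CPM in the splenic libraries (1.20 ± 0.22), without overlap.

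Of 28 genes of the MHC class I pathway, 21 were higher and 2 lower, with a median of 1.42. Among heavy chain genes and B2m together 12 of 14 were higher and none was lower. B2m (ENSMUSG00000060802, mm10 chr2:122147686-122153083), the light chain, stood at 10795, 13513 and 10684 CPM in the LN libraries and 3052, 2983 and 2516 CPM in the splenic libraries (2.03 ± 0.27, adjusted p = 4.24e-06). H2-D1 averaged 18776 CPM in LN and 5995 CPM in spleen and H2-M2, a non-classical heavy chain, 501 CPM in LN and 6.59 CPM in spleen, and reads of near-identical H2 genes could be split between them. Nlrc5, the class I counterpart of Ciita, stood at 419, 551 and 495 CPM in the LN libraries and 81.7, 59.4 and 102 CPM in the splenic libraries (2.59 ± 0.24), and Tapbpl and Tapbp, which edit the peptides loaded, differed by 2.70 ± 0.23 and 1.73 ± 0.25. All LN libraries of B2m and Nlrc5 lay above the splenic ones. The immunoproteasome genes Psmb8 and Psmb10 and the activator genes Psme1 and Psme2 were higher, Psme2 by 2.29 ± 0.24. The 2 lower genes were Pdia3 and Calr, chaperones of the endoplasmic reticulum that fold heavy chains (-1.40 ± 0.34 and -0.76 ± 0.21).

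Lysosomal genes divided by function. Among hydrolases and their inhibitors 14 of 24 were lower and 4 higher, with a median of -1.20. Gm2a, the activator that lifts gangliosides for digestion, stood at 253, 139.7 and 152 CPM in the LN libraries and 2186, 1834 and 3688 CPM in the splenic libraries (-3.82 ± 0.36, adjusted p = 6.71e-08), Man2b1 averaged 115 CPM in LN and 921 CPM in spleen and Arsb 38.5 CPM in LN and 228 CPM in spleen. Proteases went the other way, with 8 of 14 higher and 2 lower. Membrane and proton pump genes were higher in 9 of 19 and lower in 1. Lamp1, a main glycoprotein of the lysosomal membrane, stood at 1443, 1378 and 1188 CPM in the LN libraries and 164, 127 and 156 CPM in the splenic libraries (3.16 ± 0.20), with no overlap. Cd63, a tetraspanin of late endosomes, averaged 445 CPM in LN and 9.49 CPM in spleen and the pump subunit Atp6v0a1 207 CPM in LN and 18.4 CPM in spleen.

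Genes for sensing moved in both directions. Of 11 Toll-like receptors 6 were lower and 1 was higher, which was Tlr1 (1.18 ± 0.27). Tlr11 and Tlr12, which recognise profilin of protozoa, differed by -1.60 ± 0.32 and -2.61 ± 0.42. Tlr12 stood at 21.6, 15.4 and 13.2 CPM in the LN libraries and 77.9, 96.9 and 132 CPM in the splenic libraries, with LN replicate 1 the highest of its group, and no overlap. Unc93b1, the escort of endosomal receptors, averaged 605 CPM in LN and 1554 CPM in spleen, and Cd180 6.20 CPM in LN and 32.6 CPM in spleen. Of the inflammasome and NOD genes 7 of 17 were lower, led by Nlrp3 (0.872 CPM in LN and 19.7 CPM in spleen), Mefv (1.76 CPM in LN and 39 CPM in spleen) and Nod1 (5.71 CPM in LN and 48.3 CPM in spleen), and 5 were higher, among them Casp4 (3.27 ± 0.29). Sensors of cytosolic nucleic acid leaned the other way, with 5 of 11 higher and 1 lower. Ddx58, which encodes the RNA sensor RIG-I, stood at 21.5, 38 and 29.6 CPM in the LN libraries and 4.51, 2.14 and 3.86 CPM in the splenic libraries (3.07 ± 0.31, adjusted p = 1.66e-07).

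No Fc receptor gene was higher. Of 10 tested, 7 were lower, and Fcgr2b, the inhibitory receptor for IgG, stood at 17.3, 7.90 and 11.2 CPM in the LN libraries and 119, 123 and 62.5 CPM in the splenic libraries (-3.06 ± 0.41, adjusted p = 5.76e-06). Fcer1g, the shared signalling chain, averaged 81.4 CPM in LN and 87.7 CPM in spleen and did not pass. The CD300 and SIRP paired receptors were lower in 14 of 18 and higher in 3, with a median of -3.40. Cd300a stood at 3.46, 1.74 and 1.99 CPM in the LN libraries and 100.1, 100.4 and 82.8 CPM in the splenic libraries (-5.29 ± 0.27), while Pirb, which binds MHC class I, was among the higher ones (1.53 ± 0.24). C-type lectins were lower in 16 of 24 and higher in 7, and without splenic replicate 3 the higher count was 4. Cd209a, Cd209d, Cd209e and Clec4b2 were among the lower ones, Cd209e with 0 counts in LN, at least 77-fold lower there with a floor of 3 counts over the group. In spleen, Cd209a stood at 99.6, 67.8 and 41.6 CPM in replicates 1 to 3, and splenic replicate 1 also had the highest Sirpa, the DC2 marker, of its group (118 CPM against 63.9 and 44.9). Ly75 (DEC-205), an endocytic lectin of DC1, went against the rest at 746, 876 and 736 CPM in the LN libraries and 127, 176 and 267 CPM in the splenic libraries (2.05 ± 0.25, adjusted p = 1.75e-06), as did Mrc2 (19 CPM in LN and 0.571 CPM in spleen) and Clec2i (169 CPM in LN and 13.7 CPM in spleen).

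Receptors and bridges for apoptotic cells split, 8 of 24 higher and 10 lower. Mfge8, a bridge between phosphatidylserine and integrins, stood at 711, 798 and 632 CPM in the LN libraries and 13.9, 14 and 14.7 CPM in the splenic libraries (5.65 ± 0.33, adjusted p = 3.11e-10), and the phosphatidylserine receptors Timd4 and Havcr1 were higher by 4.12 ± 0.35 and 4.48 ± 0.57. Itgb5, which pairs with the αv integrin of that route, differed by 3.68 ± 0.30. Cd36, a scavenger receptor of splenic DC1, was lower, at 128, 144 and 121 CPM in the LN libraries and 338, 535 and 532 CPM in the splenic libraries (-1.84 ± 0.31), and Havcr2 and Cd300lf, which also bind phosphatidylserine, were lower, at -4.34 ± 0.30 and -3.77 ± 0.55. None of these overlapped between organs.

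Genes by which DC1 are recognised were lower in LN. Of a signature of 31, 26 were lower and 2 higher, with a median of -2.61, and Ly75 and Tmem131l were the higher ones. Among genes of uptake and cross-presentation 11 of 13 were lower. Naaa, a lysosomal amidase, stood at 148, 23.3 and 40.9 CPM in the LN libraries and 1236, 1619 and 2336 CPM in the splenic libraries, and Ppt1, a lysosomal thioesterase, at 299, 104 and 144 CPM in the LN libraries and 2482, 2841 and 4516 CPM in the splenic libraries (-4.17 ± 0.35). Rab43, which steers membrane traffic of cross-presentation, was lower, at 287 CPM in LN and 766 CPM in spleen, and Sec22b, a fusion protein of the same route, averaged 75.2 CPM in LN and 71.8 CPM in spleen and did not pass. Most exon bases of Rab43 also lie in a neighbouring gene model, and counting without strand leaves its level uncertain. Tlr3, the receptor for double-stranded RNA, averaged 7.82 CPM in LN and 279 CPM in spleen. LN replicate 1 was the highest of its group in 22 of the 26 lower genes and splenic replicate 1 the lowest of its group in 18, against 51.9% and 34.1% of all 3114 lower genes. Among transcription factors 10 of 26 were higher and 8 lower. Mycl, an oncogene relative that DC1 use to grow, stood at 52.6, 17 and 18.5 CPM in the LN libraries and 444, 503 and 497 CPM in the splenic libraries (-4.03 ± 0.37, adjusted p = 4.37e-08), Bcl11a averaged 11.5 CPM in LN and 189 CPM in spleen, and Spib and Zeb1 were higher by 3.23 ± 0.25 and 1.8 ± 0.28. Zbtb46 and Spi1, factors of all conventional DCs, did not pass.

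**Figure D3:**
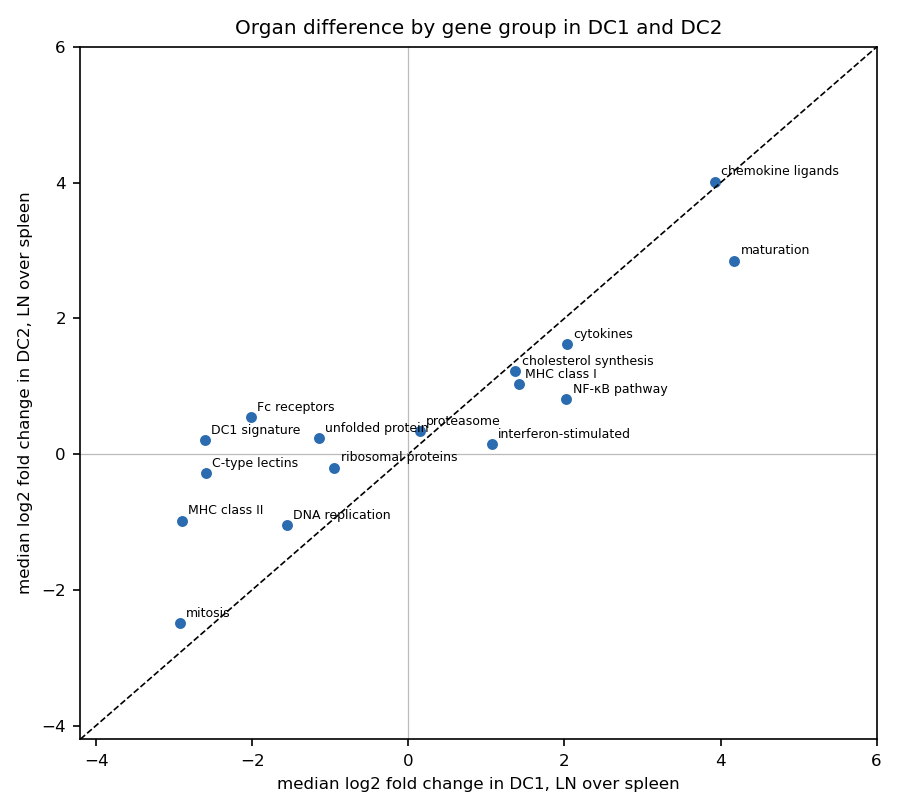
Median log2 fold change between LN and spleen of the members tested in each of the same 16 gene groups, in DC1 (horizontal axis) and in DC2 (vertical axis, LN CD11b+ over splenic CD4+ cells, no library shared), with a dashed line where both would be equal. Interferon-stimulated, unfolded protein, NF-κB and MHC class II genes lie off the line, and cholesterol synthesis and mitosis genes near it.

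Most interferon-stimulated genes were higher in LN DC1. Of 54 tested, 31 were higher, 7 were lower and 16 did not pass, with a median of 1.07. Ifit1 (ENSMUSG00000034459, mm10 chr19:34640871-34650009), which binds foreign RNA ends, stood at 49.3, 80.6 and 71.6 CPM in the LN libraries and 4.04, 1.60 and 1.82 CPM in the splenic libraries (4.74 ± 0.41, adjusted p = 2.5e-08). Gbp2 and Gbp4 encode guanylate-binding proteins that attack vacuoles of pathogens. Gbp2 stood at 415, 602 and 548 CPM in the LN libraries and 11.2, 6.68 and 17.5 CPM in the splenic libraries (5.46 ± 0.45), and Gbp4 averaged 481 CPM in LN and 22.2 CPM in spleen (4.43 ± 0.35). LN replicate 2 was the highest of its group in 20 of the 31 higher genes, against 1267 of all 3254 higher genes. The LN libraries of Ifit1 and Gbp2 all lay above the splenic ones. Of the guanylate-binding and immunity-related GTPases 8 of 14 were higher and none was lower. Isg15 and Usp18, its remover, were higher by 2.99 ± 0.34 and 2.57 ± 0.21. Of the transcription factors of the pathway, Stat2 averaged 140.1 CPM in LN and 132 CPM in spleen and did not pass the test, and Irf7 was lower (-0.99 ± 0.23). Irf1 was higher, at 1382, 1644 and 1366 CPM in the LN libraries and 134, 153 and 255 CPM in the splenic libraries (3.02 ± 0.24). Among lower genes were Ly6e, at 674, 612 and 481 CPM in the LN libraries and 3529, 4604 and 3296 CPM in the splenic libraries (-2.69 ± 0.28), and Ifitm3 (13.2 CPM in LN and 48.4 CPM in spleen). Ifitm6 had no count in LN and was at least 73.3-fold lower there, with a floor of 3 counts over the group.

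The promoters of the interferon-stimulated genes were searched for the element that interferon factors bind. Promoter windows were found for 40 of the 54 genes. Of these, 21 (52.5%) held the interferon element, GAAA followed after any 2 bases by GAAA, on either strand. It stood in 3.44% of all 32851 windows and in the windows of 4.07% of the 9386 genes tested that had one. Of 22 higher genes with a window 12 held it, and of the 18 others 9 did. Both stretches below cover the 200 bases before the start, 5′ to 3′ on the gene's strand, with the element in capitals, read from the opposite strand in each. A match describes letters and does not show a site in use.
Gbp2, mm10 chr3:142620463-142620662, plus strand: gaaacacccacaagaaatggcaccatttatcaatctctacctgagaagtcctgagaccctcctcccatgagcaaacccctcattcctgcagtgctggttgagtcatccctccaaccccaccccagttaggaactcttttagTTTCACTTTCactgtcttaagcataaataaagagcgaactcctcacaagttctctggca
Ifit1, mm10 chr19:34640689-34640888, plus strand: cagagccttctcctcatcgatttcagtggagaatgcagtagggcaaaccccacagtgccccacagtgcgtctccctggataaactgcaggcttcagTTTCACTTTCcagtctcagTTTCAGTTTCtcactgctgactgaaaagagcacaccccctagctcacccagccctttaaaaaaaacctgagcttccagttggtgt

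The cell cycle was lower in LN DC1. Of 35 genes of mitosis and G2 phase, 34 were lower and none was higher, with a median of -2.93, and of 34 genes of DNA replication 26 were lower and 3 higher (-1.56). Mki67, which marks cycling cells, stood at 37.7, 29.6 and 23.8 CPM in the LN libraries and 146, 208 and 242 CPM in the splenic libraries (-2.71 ± 0.23, adjusted p = 2.02e-08). Birc5 (survivin) stood at 1.25, 0.232 and 0.993 CPM in the LN libraries and 19.8, 15.1 and 29.7 CPM in the splenic libraries, with 17 LN counts and a spleen over LN ratio of 27.7-fold (95% Poisson interval 17.3 to 47.6), and Rrm2, the ribonucleotide reductase subunit of S phase, averaged 19.8 CPM in LN and 174 CPM in spleen (-3.13 ± 0.42). Neither Mki67 nor Birc5 overlapped between organs. Splenic replicate 3 was the highest of its group in 30 of the 34 lower mitosis genes and LN replicate 1 of its group in 26. Over all 3114 lower genes these counts were 1327 and 1617. The 3 higher replication genes were Uhrf1, Pold1 and Tk1. Of 15 genes of cyclin-dependent kinase inhibitors, D cyclins, their kinases and the retinoblastoma family, 8 were higher and 1 was lower, which was 2 without splenic replicate 3. Cdkn2b (p15) stood at 141, 131 and 137 CPM in the LN libraries and 0.119, 0 and 1.82 CPM in the splenic libraries (7.62 ± 0.58, adjusted p = 1.63e-08) and Cdkn1a (p21) at 201, 271 and 254 CPM in the LN libraries and 9.50, 12.3 and 24.6 CPM in the splenic libraries (3.96 ± 0.31), while Cdk4 was lower, at -1.39 ± 0.21. Ccnd2 was higher too, at 153 CPM in LN and 7.23 CPM in spleen.

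The letters TTTGAA, the core of the cell cycle homology region, stood in the windows of 20 of 28 mitosis genes (71.4%), either strand counted. They stood in 17.9% of all windows and in the windows of 14.7% of the genes tested that had one. All 20 were among the 27 lower genes with a window. Only 1 gene with a window was not lower, so the letters could not be compared between lower and other genes. Ube2c and Kif11, which encode a ubiquitin carrier and a spindle motor, are shown as the called members with the largest changes whose 200 bases hold the letters, at -4.22 ± 0.50 and -3.89 ± 0.39, and the matches begin 29 and 19 bases before the start.
Ube2c, mm10 chr2:164769729-164769928, plus strand: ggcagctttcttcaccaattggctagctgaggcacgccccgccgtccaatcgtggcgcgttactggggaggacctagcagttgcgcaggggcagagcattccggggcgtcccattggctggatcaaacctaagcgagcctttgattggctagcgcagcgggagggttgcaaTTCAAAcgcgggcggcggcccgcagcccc
Kif11, mm10 chr19:37376182-37376381, plus strand: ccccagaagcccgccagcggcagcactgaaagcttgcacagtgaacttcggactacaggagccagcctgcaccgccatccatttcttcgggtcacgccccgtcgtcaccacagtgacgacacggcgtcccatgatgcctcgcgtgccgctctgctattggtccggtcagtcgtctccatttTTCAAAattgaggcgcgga

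Many genes that make protein were lower as well. Cytosolic ribosomal proteins were lower in 55 of 82 and higher in 2, with a median of -0.95. Rplp0 stood at 515, 495 and 602 CPM in the LN libraries and 1110.1, 994 and 1675 CPM in the splenic libraries (-1.23 ± 0.25, adjusted p = 0.000423), without overlap. Ribosomal genes share sequence with processed copies across the genome, so single values among them are uncertain. Aminoacyl-tRNA synthetases were lower in 13 of 20, higher in 2, and 5 did not pass. The higher ones were Wars (1.61 ± 0.32), which interferon-γ is known to induce, and Aars (0.82 ± 0.25). The call of Aars was lost without splenic replicate 1 (0.58) or 2 (0.69). Mitochondrial ribosomal proteins were lower in 32 of 76 and nuclear genes of the respiratory chain in 34 of 87, the last count being 19 without LN replicate 2 and 22 without LN replicate 3. Medians differed with gene length. Among 8311 protein-coding genes with a mean of at least 10 CPM, the median was -0.40 below 1 kb of exon and 0.09 at 4 kb and more, and the share of reads outside exons differed between organs by the ranges given above. The median exon length of the ribosomal protein genes was 1428 bases, and the part of length in their change was not tested.

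The unfolded protein response, which matches folding capacity in the endoplasmic reticulum to secretory load, was lower in 15 of 26 genes and higher in 5, with a median of -1.15. Xbp1, its transcription factor, stood at 82, 63.2 and 63.4 CPM in the LN libraries and 197, 201 and 206 CPM in the splenic libraries (-1.54 ± 0.20, adjusted p = 3.47e-06). The chaperones Hspa5 (BiP) and Hsp90b1 (GRP94) and the disulphide isomerase Pdia6 were lower, at -1.55 ± 0.19, -2.19 ± 0.20 and -2.27 ± 0.28. Pdia6 stood at 101, 55.5 and 78.9 CPM in the LN libraries and 349, 344 and 441 CPM in the splenic libraries, with no overlap. Ppp1r15a and Ddit3, targets of Atf4 in the arm of the response that arrests translation, stood on the other side. Ppp1r15a (GADD34) averaged 748 CPM in LN and 80.4 CPM in spleen (3.22 ± 0.21) and Ddit3 (CHOP) 26 CPM in LN and 7.43 CPM in spleen (1.8 ± 0.30), while their activator Atf4 averaged 96.6 CPM in LN and 89.2 CPM in spleen and did not pass. Cytosolic heat shock genes were mixed, 7 of 20 higher and 5 lower, with Hspa1a and Hspa1b, near-identical copies, higher by 3.14 ± 0.35 and 3.26 ± 0.32. Of immediate early genes, which tissue digestion can induce, 11 of 26 were higher and 5 lower. Btg1 and Klf6 were higher by 2.32 ± 0.22 and 2.47 ± 0.32 and Egr1 and Nr4a1 lower, at -2.08 ± 0.34 and -1.59 ± 0.41, while Fos averaged 253 CPM in LN and 428 CPM in spleen without passing. Fos was called lower without a filter (-0.772), with only the 6 DC1 libraries (-0.758) and with the replicate number as a block (-0.755). The same held without LN replicate 3 (-1.09) or splenic replicate 2 (-0.995).

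The ER stress element, CCAAT and CCACG with any 9 bases between on either strand, was found in the windows of 8 of 23 genes of this group (34.8%). It stood in 0.119% of all windows and in the windows of 0.16% of the genes tested that had one. Of 12 lower genes with a window 7 held it, and of the 11 others 1 did. Pdia6 and Hsp90b1 are shown as the called members with the largest changes whose 200 bases hold it, the first with the element on its own strand and the second on the opposite one.
Pdia6, mm10 chr12:17266389-17266588, plus strand: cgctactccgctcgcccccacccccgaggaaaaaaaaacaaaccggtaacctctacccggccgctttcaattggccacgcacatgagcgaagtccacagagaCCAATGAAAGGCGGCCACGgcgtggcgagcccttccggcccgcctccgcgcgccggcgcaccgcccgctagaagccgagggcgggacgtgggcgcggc
Hsp90b1, mm10 chr10:86705445-86705644, minus strand: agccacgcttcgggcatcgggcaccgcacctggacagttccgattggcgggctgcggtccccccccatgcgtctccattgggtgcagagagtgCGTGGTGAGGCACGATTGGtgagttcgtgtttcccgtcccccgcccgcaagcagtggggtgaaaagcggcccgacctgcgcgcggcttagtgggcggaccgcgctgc

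**Figure D4:**
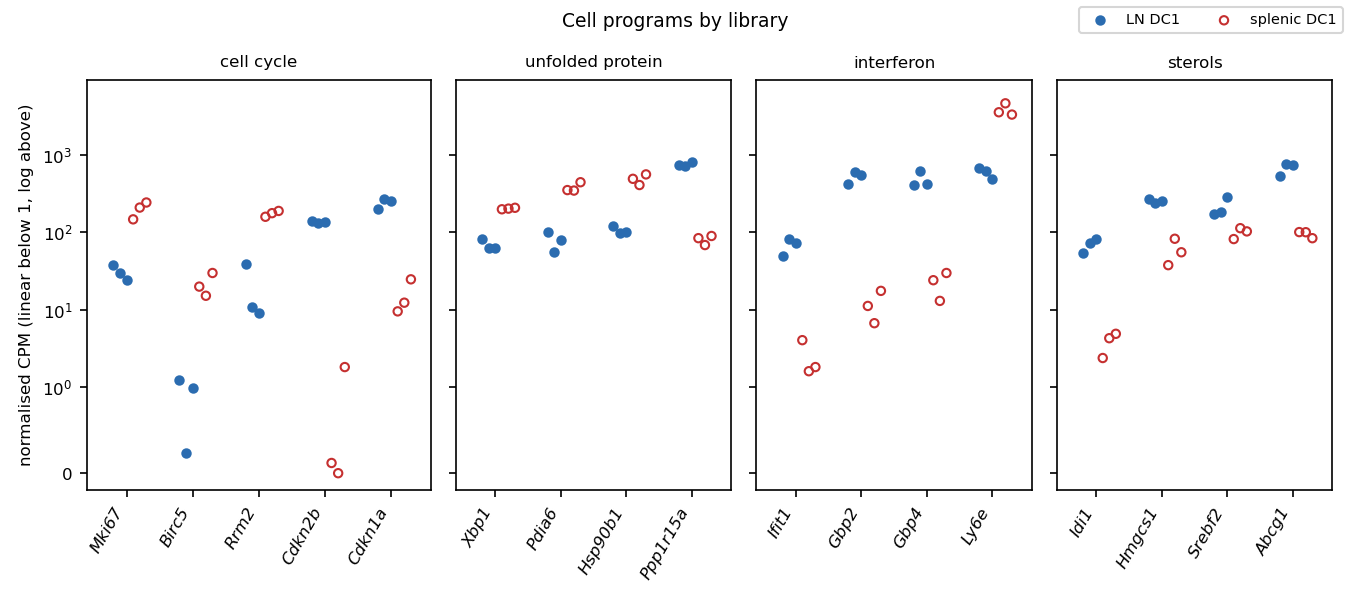
Normalised CPM, on an axis linear below 1 CPM and logarithmic above, in each of the 3 LN (filled) and 3 splenic (open) libraries for genes of the cell cycle, the unfolded protein response, the interferon response and sterol synthesis and export. LN libraries are lower for Mki67, Birc5, Pdia6 and Hsp90b1 and higher for Cdkn2b, Ifit1, Gbp2, Idi1 and Hmgcs1.

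Cholesterol synthesis genes were higher or did not pass. Of 25 genes of sterol synthesis and uptake 17 were higher, none was lower and 8 did not pass, with a median of 1.37. Idi1 (ENSMUSG00000058258, mm10 chr13:8885501-8892451), the isomerase at the branch to isoprenoids, stood at 54.3, 73 and 82.7 CPM in the LN libraries and 2.38, 4.28 and 4.88 CPM in the splenic libraries (4.18 ± 0.38, adjusted p = 5.1e-08). Hmgcs1, a synthase early in the pathway, stood at 266, 237 and 254 CPM in the LN libraries and 37.5, 82.2 and 55 CPM in the splenic libraries (2.11 ± 0.24). Neither gene overlapped between organs. Srebf2, the factor that drives the pathway, was higher by 1.11 ± 0.23, and Insig1, its brake and target, averaged 19.5 CPM in LN and 17.7 CPM in spleen without passing. The sterol element TCACNCCAC stood in the windows of 1 of 18 genes of this group, Hmgcs1. It stood in 1.24% of all windows and in the windows of 1.41% of the genes tested that had one. Export genes were mixed, with Abcg1 higher by 2.84 ± 0.23 and Scarb1, a lipoprotein receptor, lower, at -4.11 ± 0.34. Of 35 fatty acid genes 3 were higher and 10 lower, a called share of 37.1% against 48.9% of all genes. Fasn was lower, at 49.2, 35 and 68 CPM in the LN libraries and 121, 187 and 202 CPM in the splenic libraries (-1.75 ± 0.28), as were Elovl6 (2.76 CPM in LN and 12.8 CPM in spleen) and Fads1 (16 CPM in LN and 37 CPM in spleen), and Fabp5, a fatty acid carrier, was higher (159.9 CPM in LN and 2.71 CPM in spleen).

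Carbon metabolism changed gene by gene. Of 25 glycolysis genes 7 were higher and 9 lower. The regulator Pfkfb3 stood at 1787, 2409.8 and 2661 CPM in the LN libraries and 125, 115 and 171 CPM in the splenic libraries (4.06 ± 0.23, adjusted p = 2.39e-10), and the enolases Eno2 and Eno3 were higher by 5.90 ± 0.27 and 4.85 ± 0.30. Ldha, the lactate dehydrogenase, was lower, at 244, 160.4 and 141 CPM in the LN libraries and 824, 1064 and 892 CPM in the splenic libraries (-2.35 ± 0.29), and so were the glucose transporter Slc2a3 (1.99 CPM in LN and 28.1 CPM in spleen) and the hexokinases Hk2 (12.3 CPM in LN and 99.7 CPM in spleen) and Hk3 (11.6 CPM in LN and 123 CPM in spleen), while Hk1 was higher (1.15 ± 0.21). In the tricarboxylic acid cycle the cytosolic enzyme Idh1 was higher by 3.11 ± 0.28 and its mitochondrial relatives Idh2 and Idh3a lower, at -2.67 ± 0.21 and -2.33 ± 0.28, among 12 lower of 29. One-carbon and pentose genes were lower in 10 of 17, with Mthfd2 an exception (1.93 ± 0.20). Metallothioneins, which bind zinc and copper, were higher, Mt2 at 214, 314 and 159.8 CPM in the LN libraries and 1.31, 1.87 and 0.567 CPM in the splenic libraries (7.53 ± 0.60) and Mt1 by 3.61 ± 0.34, and the cystine carrier Slc7a11 differed by 4.41 ± 0.29. Most exon bases of Mt2 lie in a second gene model, so that its count is uncertain. Hmox1, the haem-degrading enzyme, was lower (10.1 CPM in LN and 117 CPM in spleen), in libraries whose erythroid markers were also lower, and their part in it was not tested. Aldh1a2, which makes retinoic acid, stood at 112, 141 and 151 CPM in the LN libraries and 1.31, 0.802 and 4.42 CPM in the splenic libraries (5.91 ± 0.46), and Rarb, a receptor and target of it, averaged 10.3 CPM in LN and 0.399 CPM in spleen. Lipid mediator genes were lower in 7 of 14, led by Ptgis (0.657 CPM in LN and 25.6 CPM in spleen), Alox5ap (19 CPM in LN and 351 CPM in spleen) and Tbxas1 (3.03 CPM in LN and 48.3 CPM in spleen), and Ltc4s was higher (39 CPM in LN and 1.11 CPM in spleen).

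**Figure D5:**
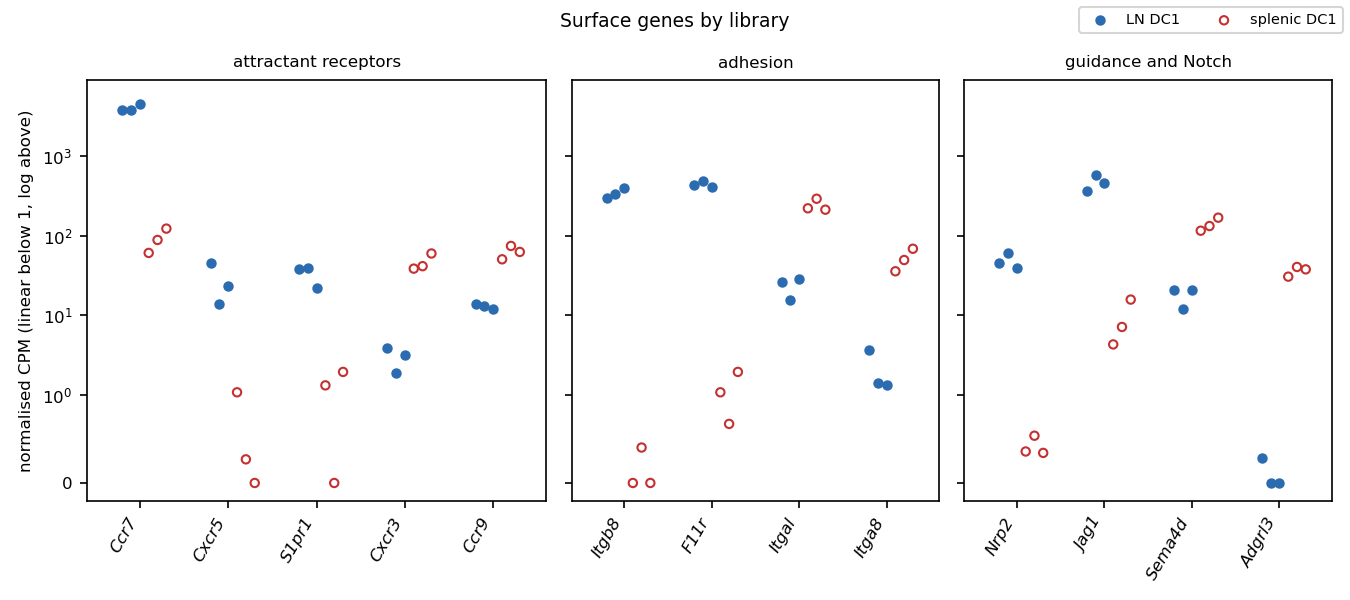
Normalised CPM in each of the 3 LN (filled) and 3 splenic (open) libraries for adhesion, guidance and attractant genes, on an axis that is linear below 1 CPM so that libraries with no count can be drawn at 0, and logarithmic above. The LN libraries are above the splenic ones for Ccr7, Itgb8, F11r, Nrp2 and Jag1 and below for Itgal, Itga8, Cxcr3 and Adgrl3.

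Adhesion and guidance families gave different counts. Integrin subunits were lower in 10 of 21 and higher in 5. Itgal (CD11a), a chain of LFA-1, stood at 26.2, 15.3 and 28.5 CPM in the LN libraries and 219.8, 290.1 and 211 CPM in the splenic libraries (-3.37 ± 0.28, adjusted p = 1.37e-08) and its partner Itgb2 was lower, at -2.97 ± 0.23, and Itga8 averaged 2.11 CPM in LN and 51 CPM in spleen. Itgb8, whose product with αv releases active TGF-β, had 3 splenic counts and a ratio of 2840.0-fold (95% Poisson interval 972 to 13770.0). Cadherins were higher in 6 of 10, with Pcdh7 at 19.6 CPM in LN and 0.0792 CPM in spleen (2 splenic counts, 242-fold (95% Poisson interval 67 to 1998)). F11r (JAM-A), a junction protein, stood at 433, 481 and 404 CPM in the LN libraries and 1.07, 0.668 and 1.93 CPM in the splenic libraries (8.44 ± 0.37, adjusted p = 2.78e-11), and Cldn1 averaged 66.5 CPM in LN and 7.11 CPM in spleen. Guidance genes were higher in 16 of 33 and lower in 7, the last count being 4 without splenic replicate 3. Nrp2, a receptor of class 3 semaphorins, stood at 45.3, 61.1 and 39.4 CPM in the LN libraries and 0.356, 0.535 and 0.340 CPM in the splenic libraries (6.85 ± 0.41), Sema6d averaged 477 CPM in LN and 6.27 CPM in spleen and Plxnc1 1257 CPM in LN and 180.4 CPM in spleen, whereas Sema4d averaged 17.8 CPM in LN and 138 CPM in spleen and Adgrl3 (latrophilin 3) 0.0924 CPM in LN and 36.1 CPM in spleen. The Notch ligand Jag1 stood at 366, 580.4 and 460.3 CPM in the LN libraries and 4.28, 7.09 and 15.7 CPM in the splenic libraries (5.69 ± 0.41), Dll4 had no splenic count and was at least 74.7-fold higher in LN, and the receptor Notch4 was lower (5.97 CPM in LN and 114 CPM in spleen). Metalloproteinases of the cell surface and matrix were higher in 12 of 23, with Mmp14 at 42.1 CPM in LN and 0.113 CPM in spleen and Mmp25 at 205 CPM in LN and 2.66 CPM in spleen. Among actin genes, 15 of 45 were higher and 12 lower, and besides Fscn1 the bundlers Actn1 and Pls3 were higher (2.43 ± 0.30 and 2.83 ± 0.37), while Was, the Wiskott-Aldrich protein of blood cells, and Gsn were lower (-2.41 ± 0.27 and -2.03 ± 0.22).

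Signalling families gave smaller or divided counts. Survival genes of the BCL-2 family were higher for Bcl2l1 (BCL-xL), at 146, 161 and 194 CPM in the LN libraries and 4.63, 6.68 and 13.4 CPM in the splenic libraries (4.33 ± 0.40, adjusted p = 4.92e-08), and for Bcl2a1b and Mcl1, and the death genes Bcl2l11 (BIM) and Bbc3 (PUMA) were higher as well (1.05 ± 0.23 and 1.72 ± 0.41). Bcl2a1b has near-identical copies and shares exons with another model, and its count is uncertain. Bid was the one lower member (-1.87 ± 0.24). Purinergic receptors and ectonucleotidases were lower in 12 of 23. P2rx7, the channel for extracellular ATP, averaged 2.87 CPM in LN and 56.3 CPM in spleen and P2ry14 4.23 CPM in LN and 154 CPM in spleen, while Adora2a, the inhibitory adenosine receptor, stood at 246, 298 and 395 CPM in the LN libraries and 10.4, 8.82 and 9.53 CPM in the splenic libraries (5.02 ± 0.30). Regulators of G protein signalling gave 3 higher and 3 lower of 8, Rgs1 at 1580.4 CPM in LN and 125 CPM in spleen and Rgs18 at 2.58 CPM in LN and 72.1 CPM in spleen. Serpins of the B clade divided between Serpinb1a and Serpinb9, which inhibit granule proteases and were higher (926 CPM in LN and 17.3 CPM in spleen and 649.7 CPM in LN and 86.8 CPM in spleen), and Serpinb2, Serpinb8 and Serpinb10, which were lower (0.0924 CPM in LN and 25.4 CPM in spleen for the first). Solute carriers, the family with the most members tested, gave 55 higher and 54 lower of 179.

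DC2 of the same organs, LN CD11b+ against splenic CD4+ cells, gave a comparison that shares no library with DC1, in which organ, cohort and the nodal gate for high MHC class II are again joined. The difference between the organ effects of DC1 and DC2 passed edgeR's interaction test for 1643 genes (12.6%), of which 763 lay on the LN side in DC1. Cholesterol synthesis had no such gene among 25, and its median in DC2 was 1.23. Mitosis had 1 of 35 with a DC2 median of -2.49, and proteasome genes had none of 41. In the interferon-stimulated group 31 of 54 differed, 26 of them on the LN side of DC1, and the DC2 median was 0.14. Ifit3 was higher in LN DC1 (2.51) and lower in LN DC2 (-1.05), a difference of 3.56 ± 0.60 (adjusted p = 0.000586), and Gbp4 differed by 3.6 ± 0.44 and Ifit1 by 4.65 ± 0.52 between the lineages. Unfolded protein genes differed in 13 of 26, all on the splenic side of DC1, with a DC2 median of 0.23. Hsp90b1 was -2.19 in DC1 and 0.27 in DC2 (-2.46 ± 0.28, adjusted p = 1.32e-05). NF-κB genes differed in 17 of 31, all on the LN side, with Relb 4.16 in DC1 and 1.39 in DC2 (2.77 ± 0.32, adjusted p = 1.37e-05). Pdcd1lg2 was 5.37 in DC1 and -0.14 in DC2, where it was not called (5.51 ± 0.46). Of 14 MHC class II genes 9 differed, H2-DMb1 among them (-3.97 in DC1, -0.35 in DC2, difference -3.63 ± 0.63).

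Genes called in opposite directions in the lineages, with the difference itself called, numbered 158, 59 of them on the LN side in DC1 and 99 on the splenic side. Rab7b, a Rab of late endosomes, was -4.26 in DC1 and 3.03 in DC2 (-7.29 ± 0.59, adjusted p = 3.19e-07). Ccr2 gave -2.53 and 2.90 (-5.43 ± 0.39), Fcgr2b -3.06 and 1.04 (-4.10 ± 0.55), and P2ry14 -5.19 and 1.87 (-7.06 ± 0.58). In the other direction Esam, an adhesion protein that marks splenic DC2, gave 2.73 and -1.29 (4.02 ± 0.40). Levels of Esam lay between 40.03 and 65.3 CPM in LN DC1 and between 6.55 and 8.74 CPM in splenic DC1, with no overlap.

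Some of the largest differences lay outside these groups. Fah, the last enzyme of tyrosine breakdown, stood at 59.6, 79.9 and 75.6 CPM in the LN libraries and 0, 0 and 0.454 CPM in the splenic libraries, with 4 splenic counts and a ratio of 443-fold (95% Poisson interval 173 to 1626). Plat, tissue plasminogen activator, stood at 55.3, 53.4 and 50.3 CPM in the LN libraries and 0, 0.535 and 0 CPM in the splenic libraries, and Extl1, a glycosyltransferase of the exostosin family, at 235, 221 and 158 CPM in the LN libraries and 0.238, 0.668 and 0.227 CPM in the splenic libraries. The splenic libraries of these 3 genes were all below 1 CPM. At the other end, Ddr1, a collagen receptor, stood at 0.831, 0.697 and 1.32 CPM in the LN libraries and 96, 52.1 and 25.2 CPM in the splenic libraries (-5.94 ± 0.50), Ocstamp, which takes part in cell fusion of osteoclasts, averaged 0.855 CPM in LN and 51.3 CPM in spleen and Plac8 7.34 CPM in LN and 279 CPM in spleen. No library of either organ crossed the other for these genes, since the rule that chose them asks for that.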

How the data were processed

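Poly(A) RNA libraries of sorted murine cells, each pooled from several mice, were analysed as 15 libraries in 5 groups of 3, of which 6 are DC1. The authors discarded short reads, aligned to mm10 with STAR 2.4.0j and ran featureCounts (Subread 1.5.2) on the reads that mapped once, against Ensembl genes, without strand and with reads on overlapping genes counted for each, and the deposited gene counts were used as given. The deposited TPM values, counts per exon length scaled by the authors, served 1 alternative. Exon lengths and read summaries came from other deposited tables, and 18 deposited count columns of single runs were not used.

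A gene was tested when 3 or more of the 6 DC1 libraries exceeded 1 CPM. All 15 libraries entered 1 edgeR 4.0.16 quasi-likelihood fit (R 4.3.3, TMM factors) with a mean per group, and p-values were adjusted by Benjamini-Hochberg over all 13032 genes with a threshold of 0.05. Simple effects and the DC1 minus DC2 difference came from this fit. CPM values are normalised by TMM. Alternatives were RLE factors, DESeq2 1.42.0, other filters, limma 3.58.1 on log2(TPM + 1), fewer libraries, a replicate block, and each library left out with the same 13032 genes. Symbols and positions were matched for 37607 of 38924 identifiers, and 9386 of the genes tested had a RefSeq promoter window. Ratios for genes with few counts carry Poisson intervals, which cover counting error only, as does the floor of 3 counts.

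The members and the gene lists were chosen with earlier results of these data known. Any list member could be named. In lists of more than 12 genes tested, the 3 called genes per direction with the largest changes and at least 10 CPM in the higher group came first, then the one with the highest mean CPM. Across all genes, up to 12 per direction were eligible among called genes without overlap between organs whose higher group averaged 50 CPM or more. P-values set each difference against the spread between pooled libraries of a group. That spread was estimated over all 15 libraries with information shared across genes. Paralogous genes can share reads. Some genes of the lists are not reported here.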

Additional observations from a re-analysis of the deposited data

Results flagged for a closer look

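The organ effects of 12 named genes differed between DC1 and DC2 by edgeR's quasi-likelihood interaction test with Benjamini-Hochberg adjustment, with log2 differences given here as DC1 minus DC2. The differences on the LN side of DC1 were 5.51 ± 0.46 for Pdcd1lg2, 4.65 ± 0.52 for Ifit1, 4.02 ± 0.40 for Esam, 3.6 ± 0.44 for Gbp4, 3.56 ± 0.60 for Ifit3 and 2.77 ± 0.32 for Relb. On the splenic side of DC1 they were -7.29 ± 0.59 for Rab7b, -7.06 ± 0.58 for P2ry14, -5.43 ± 0.39 for Ccr2, -4.10 ± 0.55 for Fcgr2b, -3.63 ± 0.63 for H2-DMb1 and -2.46 ± 0.28 for Hsp90b1. In 12 of 12 genes the difference stayed past the threshold under the alternatives run for it. With 3 libraries a group, no library could be tested as standing apart from its group.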

How the results depend on the processing

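The count of genes called in DC1 (6368) lay between 5468 and 5868 when 1 library was left out, and between 6322 and 6864 under other scaling, tests, filters and sets of libraries. With a change of at least 1 on the log2 scale it was 4761. The count for the difference between DC1 and DC2 (1643) lay between 1143 and 1848 with 1 library left out and between 1272 and 2186 otherwise. Among genes called both in the reported fit and in one of these, 1 changed sign, for the difference between DC1 and DC2 with limma on TPM. DESeq2 called 6493 and 2136 genes. The median of all genes moved to 0.034 with RLE size factors and to -0.080 with limma on TPM. Over the named genes and all alternatives, 20 calls were lost and 7 gained. Lower immediate early genes numbered 8 in place of 5 with the replicate block, without a filter or with only the 6 DC1 libraries.

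With the replicate number as a block, 6864 genes were called in DC1 and 2186 for the difference between DC1 and DC2. Deviations of same-numbered LN and splenic DC1 libraries correlated only at 0.029, 0.1 and 0.088, although each library correlated best with its own number. Pairing of DC1 with DC2 libraries inside an organ was not tested, and the reported fit takes none. Reads outside exons rose with the number in both nodal groups, 24.7%, 27.1% and 30.7% in CD103+ and 25.0%, 26.5% and 30.6% in CD11b+ cells. They fell with it in both splenic groups, 23.66%, 20.85% and 17.55% in CD8+ and 28.38%, 24.3% and 23.05% in CD4+ cells. With 3 pooled libraries a group, small changes are missed, and genes at or near 0 counts in an organ have no fitted fold that can be read as a bound.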

Other observations

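Several families outside the groups above were counted as well. Kinesins, motors of which many act in mitosis, gave 9 higher and 14 lower of 30 in LN DC1, and myosins 10 and 3 of 21. TRIM genes, many of them ubiquitin ligases of antiviral defence, gave 15 higher and 5 lower of 41. Rab GTPases, which direct vesicle traffic, gave 13 and 8 of 47, and complement genes 6 and 6 of 16. These counts stand beside 25.0% higher and 23.9% lower of all genes tested, and no family was tested as a whole.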
